A study of Homo sapiens with 6 samples.

Results

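The 40 genes described here encode proteins of the nucleolus that transcribe ribosomal RNA (rRNA) with RNA polymerase I and process it into ribosomal subunits. They were taken from the deposited table by gene symbol, from a fixed list, with NOLC1 set beside its partners, and all 40 were found among the 63241 genes of the table. Messenger RNA was sequenced from T24, an established line of human bladder cancer cells, in 2 groups of 3 libraries. The siUSP43 group was transfected with small interfering RNA against USP43, a deubiquitinating enzyme, and carries the label USP43 knockdown. The siNC group was transfected with control small interfering RNA and carries the label WT. Both groups were grown in the same serum-supplemented medium and share 1 batch label. The labels give neither the duplex sequences, the time after transfection, nor whether replicates were separate cultures, so the p-values rest on a spread between samples that may be technical. The series asked how USP43 bears on lipid metabolism and gemcitabine resistance, and its title names the transcription factor E2F1.

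Ribosome production starts in the nucleolus, where RNA polymerase I copies the ribosomal DNA into a long precursor RNA. Small nucleolar ribonucleoproteins (snoRNPs) modify that precursor: those with box C/D guide RNAs methylate it and those with box H/ACA guide RNAs convert uridines to pseudouridine. A large assembly, the small subunit processome, folds and cleaves the part that becomes the small subunit, and further factors build the large subunit. Growing cancer cells depend on this pathway, and MYC is a known activator of many of its genes. The values below are messenger RNA levels. Ribosomal RNA, snoRNAs and protein were not analysed here.

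Library totals ran from 21430574 to 25577200 gene counts, and each member had at least 218 counts in every library. USP43 itself was at 1.02, 0.67 and 0.80 FPKM (fragments scaled to exonic length and library depth) in the siUSP43 libraries, against 2.36, 2.09 and 2.08 FPKM in siNC. Its log2 fold change was -1.40, SE 0.14 (Benjamini-Hochberg adjusted p = 5.63e-06 by edgeR). The cells carried the epithelial keratins KRT8 and KRT18 and the mesenchymal marker VIM, with KRT8 at 86.2 to 100.5 FPKM and VIM at 392 to 451 FPKM over the 6 libraries. Neither these keratins nor VIM passed the test, whereas KRT7, KRT19 and CD44 of the same marker lists fell by 0.38, 0.38 and 0.37 on the log2 scale in siUSP43 and PPARG, a urothelial differentiation marker, rose by 0.50 (Benjamini-Hochberg adjusted p = 2.50e-05, 4.29e-04, 3.43e-05 and 8.90e-05 by edgeR). GATA3, of the same list as PPARG, lay the other way but was too low to be tested (mean under 1 FPKM). It was at 0.26, 0.30 and 0.21 FPKM in siUSP43, against 0.46, 0.40 and 0.43 FPKM in siNC. The part of these markers in the results below was not tested. The uroplakin genes, which mark differentiated urothelium, reached at most 0.16 FPKM, and the leukocyte, endothelial and fibroblast markers examined were highest for COL1A1, at 0.96 FPKM or less.

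Most of the nucleolar genes shifted little, more of them upward than downward, while NOLC1 and TCOF1 stood well above the rest. Of the 40 members 19 rose and 5 fell in siUSP43 at a Benjamini-Hochberg adjusted p under 0.05 by edgeR, and 16 did not pass. Over the 11417 genes tested, 28% rose and 28.1% fell, 56.1% in all. The share of members that changed was close to this background, and the share that rose, at 47.5%, was above it. That share was 44.7% without NOLC1 and TCOF1, and 31.6% among the 114 tested genes of the wider pathway lists below. The members were chosen with earlier results of these data known. The median log2 fold change was 0.13 for the members and -0.01 for all genes tested. The median absolute log2 fold change was 0.17 for the members and 0.24 for all genes tested. Changes of at least 0.5 on the log2 scale that passed the test were seen in 3 members, NOLC1, TCOF1 and UTP14A, against 18.9% of all genes tested. The 3 siUSP43 values lay above the 3 siNC values for 24 members and below them for 6, where 32.5% and 29.6% of all genes tested did so, 62.2% in either direction. In a culture measured in bulk, a change in the share of cells that express a gene and a change in RNA per cell cannot be told apart.

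**Figure D1:**
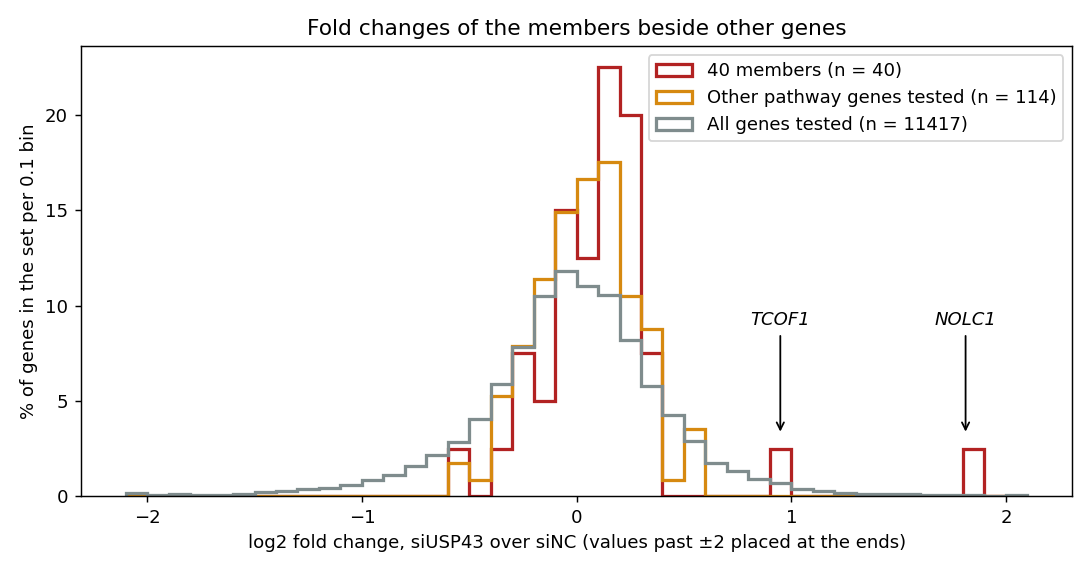
Distribution of log2 fold changes (x axis, siUSP43 over siNC) as the percent of each set per bin of 0.1 (y axis), for the 40 members, the 114 tested genes of the wider pathway lists and all 11417 genes tested. The members crowd between -0.52 and 0.36 apart from TCOF1 at 0.95 and NOLC1 at 1.81.

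**Figure D2:**
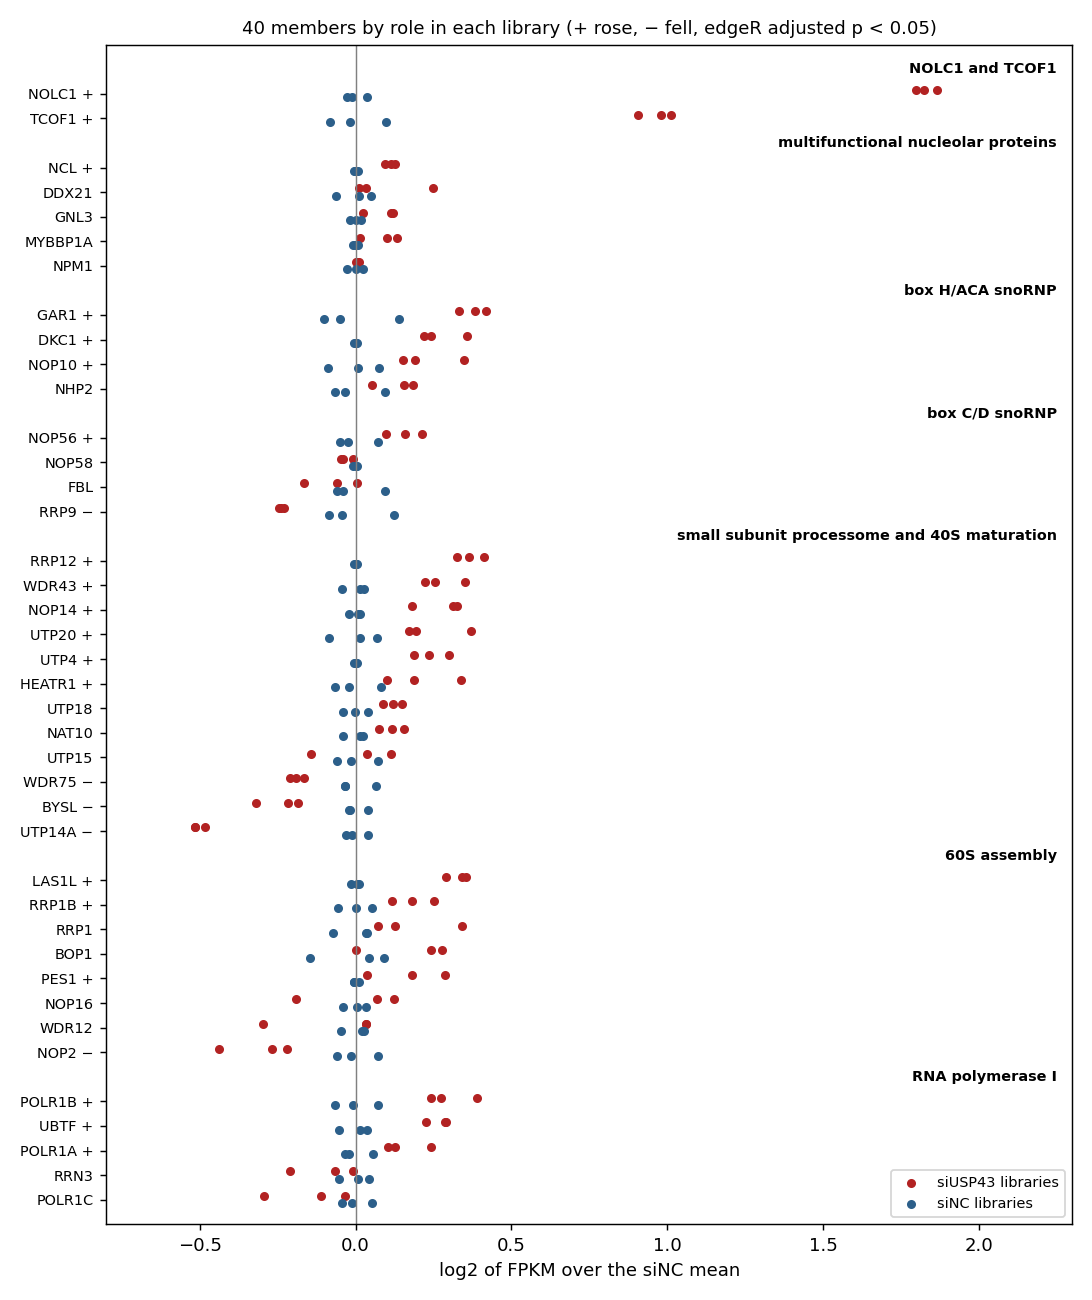
FPKM of each member in each library as the log2 ratio to its siNC mean (x axis), grouped by role (y axis), with 3 siUSP43 points above 3 siNC points in each line. NOLC1 and TCOF1 are separated from siNC by the widest gaps, and UTP14A lies farthest to the left.

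The promoters of many members share a sequence, the palindrome CACGTG. This E-box is the core site of MYC with its partner MAX and of related factors such as USF. RefSeq promoter windows (GRCh38.p14, 250 bases before to 50 after the gene start) matched 34 of the 40 symbols, leaving out NOLC1, TCOF1, NOP58, RRP12, RRP1B and BOP1. CACGTG, which reads the same on both strands, was in a window of 17 of the 34 members (50%), against 26.7% of 101 other ribosome biogenesis genes with a window (the wider pathway lists below), 12.9% of 8587 tested genes with a window and 7.26% of all 35116 windows. In 16 of those 17 members a match began within 50 bases of the gene start, which held for 42.6% of the 1107 tested genes with a match. That distance was chosen after the positions were seen. The 17 members with the E-box included 7 that rose, 4 that fell and 6 that did not pass, with a median log2 fold change of 0.10. The 17 without it included 8 that rose, 1 that fell and 8 that did not pass, with a median of 0.11. Of all genes tested 28% rose and 28.1% fell. An E2F-type site (TTTCCCGC, TTTCGCGC, TTTGGCGC or TTTGCCGC on either strand) was in the windows of 2 of the 34 members, UTP15 and PES1, against 7.17% of the tested genes with a window and 3.31% of all windows, and no E-box match overlapped one.
The windows of GAR1 and WDR43, which rose, and of UTP14A and BYSL, which fell, are shown because each holds 1 E-box, in capitals, although the genes moved in opposite directions. They lie at chr4:109815512-109815811, chr2:28894417-28894716, chrX:129905914-129906213 and chr6:41921249-41921548, all on the plus strand, and are written 5′ to 3′.
GAR1: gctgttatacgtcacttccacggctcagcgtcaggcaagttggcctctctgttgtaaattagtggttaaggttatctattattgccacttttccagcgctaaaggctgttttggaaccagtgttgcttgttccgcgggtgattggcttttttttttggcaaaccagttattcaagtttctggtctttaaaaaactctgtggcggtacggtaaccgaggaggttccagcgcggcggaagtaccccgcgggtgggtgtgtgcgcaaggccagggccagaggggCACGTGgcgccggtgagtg
WDR43: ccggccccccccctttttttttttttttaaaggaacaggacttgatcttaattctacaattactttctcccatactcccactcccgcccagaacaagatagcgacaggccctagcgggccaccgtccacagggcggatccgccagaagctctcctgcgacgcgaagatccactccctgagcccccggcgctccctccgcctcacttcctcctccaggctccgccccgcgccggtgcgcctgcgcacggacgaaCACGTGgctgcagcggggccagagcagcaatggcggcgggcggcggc
UTP14A: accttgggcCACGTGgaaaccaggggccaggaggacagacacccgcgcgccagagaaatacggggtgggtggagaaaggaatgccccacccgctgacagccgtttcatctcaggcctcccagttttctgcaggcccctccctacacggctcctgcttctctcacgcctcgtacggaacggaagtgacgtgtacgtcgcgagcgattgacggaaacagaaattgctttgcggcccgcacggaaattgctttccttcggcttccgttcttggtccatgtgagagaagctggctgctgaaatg
BYSL: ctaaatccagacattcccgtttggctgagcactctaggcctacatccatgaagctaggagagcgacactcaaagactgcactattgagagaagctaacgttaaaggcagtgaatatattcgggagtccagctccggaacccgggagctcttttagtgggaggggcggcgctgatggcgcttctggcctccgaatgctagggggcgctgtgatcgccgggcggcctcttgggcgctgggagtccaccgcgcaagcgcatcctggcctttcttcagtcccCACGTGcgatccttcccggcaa
In GAR1, WDR43 and BYSL the first base of the E-box was base 32, 4 and 29 after the start, while in UTP14A it lay before the start, at base -241.

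**Figure D3:**
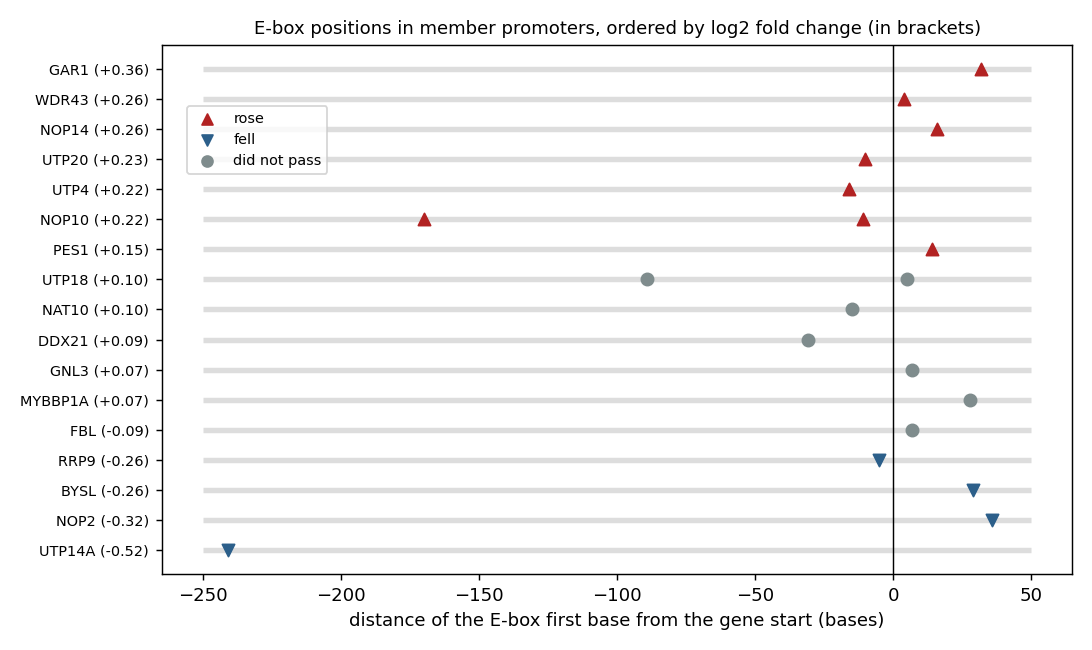
Distance of each E-box from the gene start in bases (x axis) for the 17 members with one in their promoter window, ordered down the y axis by log2 fold change, with symbols for members that rose, fell or did not pass. Members of all 3 classes carry the E-box close to the start, and UTP14A is the exception at -241.

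NOLC1 and TCOF1 are related serine-rich phosphoproteins. NOLC1 (Nopp140) shuttles between the nucleolus and Cajal bodies and binds both classes of snoRNP and RNA polymerase I, and TCOF1 (treacle), whose loss causes Treacher Collins syndrome, binds the polymerase and the factor UBTF. In human cells both are known to be monoubiquitylated by the ligase CUL3 with KBTBD8, which joins them into 1 platform. NOLC1 (ENSG00000166197, GRCh38 chromosome 10, 102152176 to 102163871, plus strand) was at 144, 146 and 151 FPKM in the siUSP43 libraries, against 42.5, 41.1 and 40.7 FPKM in siNC. The groups were far apart, and each was tight, at 147 ± 3.47 FPKM in siUSP43 and 41.4 ± 0.934 FPKM in siNC (SD, n = 3 each). The log2 fold change was 1.81, SE 0.04, a fold of 3.51 (Benjamini-Hochberg adjusted p = 1.29e-10 by edgeR, at most 2.21e-07 in 15 alternatives). In raw counts NOLC1 had 17072, 14707 and 18104 reads in siUSP43 and 4819, 4764 and 4729 in siNC.

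TCOF1 (ENSG00000070814, chromosome 5, 150357629 to 150400308, plus strand) was at 16.7, 17.0 and 15.8 FPKM in siUSP43, against 7.97, 8.33 and 9.03 FPKM in siNC, again with no overlap. Its log2 fold change was 0.95, SE 0.06, a fold of 1.93 (Benjamini-Hochberg adjusted p = 1.20e-07 by edgeR, at most 1.67e-05 in 15 alternatives). The log2 ratio of NOLC1 to TCOF1, on the FPKM scale, was 3.157 ± 0.0841 in siUSP43 and 2.296 ± 0.121 in siNC (SD, n = 3 each). It was higher in 3 of 3 siUSP43 libraries by 0.86, and a two-sided exact permutation test gave p = 0.1, the smallest that 3 against 3 allows. Neither gene overlaps another tested gene, and the only NOLC1 pseudogene in the table was listed at 0 in every library. By size of increase NOLC1 ranked 15 and TCOF1 213 among the 11417 genes tested, and a rise of at least 0.9 on the log2 scale that passed the test was seen in 2.06% of them.

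The rise of NOLC1 changed its place among the nucleolar genes. By FPKM, a level per exonic length, it ranked 2 among the 40 members in each siUSP43 library, behind NPM1, and 6, 6 and 7 in the siNC libraries. In raw counts NCL stayed above NOLC1 in each siUSP43 library, at 29264, 25161 and 30323 reads against 17072, 14707 and 18104. The exonic length was 8919 bases for NCL and 3970 for NOLC1, so their order by FPKM depends on these lengths. NOLC1 made up 13.0 ± 0.320% of the members' summed FPKM in siUSP43 and 4.30 ± 0.102% in siNC (SD, n = 3 each). The summed FPKM of the 40 members was 1127 ± 10.3 in siUSP43 and 964 ± 3.90 in siNC, a ratio of 1.17, and without NOLC1 it was 980 ± 10.53 in siUSP43 and 922 ± 4.22 in siNC, a ratio of 1.06 (SD, n = 3 each).

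**Figure D4:**
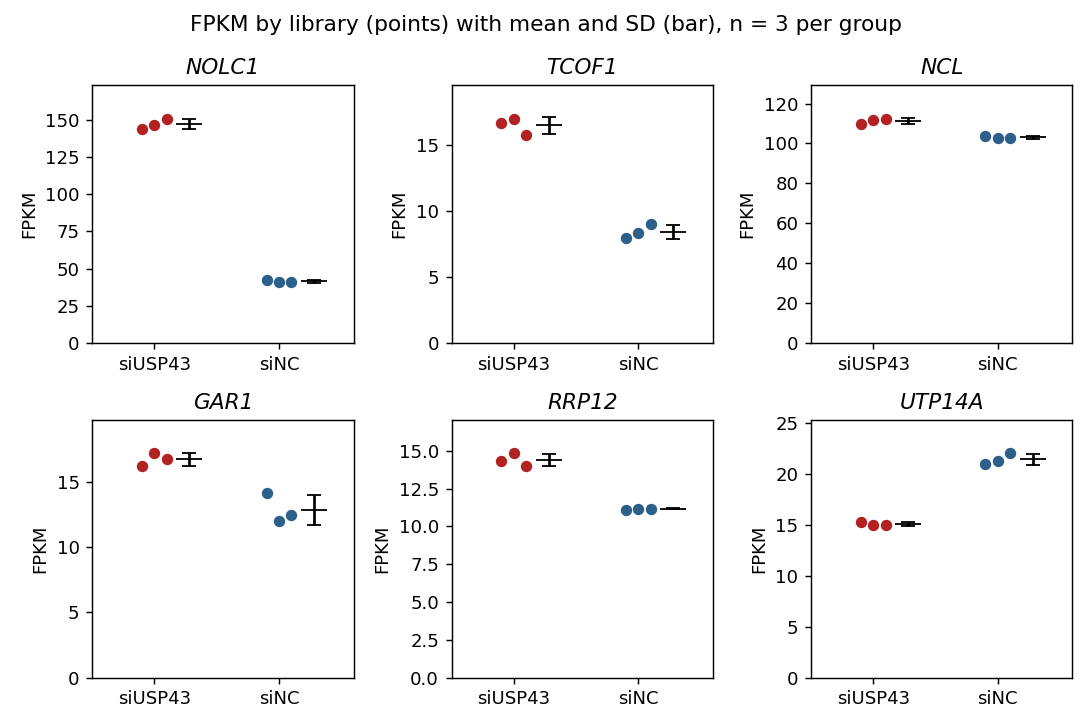
FPKM (y axis, from 0) of NOLC1, TCOF1, NCL, GAR1, RRP12 and UTP14A in each library (points) with mean and SD (n = 3 per group), siUSP43 left of siNC. NOLC1 and TCOF1 sit far above siNC, NCL is close to it at 110 to 112 FPKM in siUSP43 against 103 to 104 FPKM in siNC, and UTP14A sits below it.

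Among the genes of 5 multifunctional nucleolar proteins, 1 rose and 4 did not pass, where 28% of all genes tested rose. Their log2 fold changes lay between -0.01 and 0.10. NCL (nucleolin), which binds ribosomal DNA chromatin and precursor rRNA, was at 110, 112 and 112 FPKM in siUSP43, against 104, 103 and 103 FPKM in siNC. Its groups did not overlap, and its log2 fold change of 0.10 (SE 0.04) passed narrowly (Benjamini-Hochberg adjusted p = 0.0493 by edgeR). That call ended in 10 of 15 alternatives, with adjusted p up to 0.229, among them the loss of any 1 of the 6 libraries (log2 fold changes 0.09 to 0.11), DESeq2, upper quartile scaling and no filter. NPM1 (nucleophosmin), a chaperone of late assembly steps and the most abundant member, was at 160, 161 and 160 FPKM in siUSP43, against 162, 160 and 156 FPKM in siNC, with overlapping groups. The fitted log2 difference, -0.01 (SE 0.04), did not pass. The table lists 49 NPM1 pseudogenes, 2 of them above 1 FPKM with NPM1P27 at 41.2 FPKM in siUSP43 and 38.8 FPKM in siNC, so the division of reads between such copies is uncertain. DDX21, a helicase that couples polymerase I activity to processing, had a log2 fold change of 0.09, GNL3 (nucleostemin) one of 0.07 and MYBBP1A one of 0.07, and none of these passed. GNL3 overlaps the tested genes GLT8D1 and PBRM1.

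All 4 proteins of the box H/ACA snoRNP core had positive log2 fold changes, and 3 rose. Of all 11417 genes tested, 5587 had positive log2 fold changes and 28% rose. DKC1 (dyskerin), the pseudouridine synthase, was at 21.6, 23.4 and 21.3 FPKM in siUSP43, against 18.3, 18.2 and 18.3 FPKM in siNC, a log2 fold change of 0.26 (SE 0.05; Benjamini-Hochberg adjusted p = 7.76e-04 by edgeR, at most 0.00692 in 15 alternatives). GAR1 was at 16.23, 17.21 and 16.81 FPKM in siUSP43, against 14.20, 12.02 and 12.45 FPKM in siNC, a log2 fold change of 0.36 (SE 0.07; Benjamini-Hochberg adjusted p = 0.00115 by edgeR, at most 0.00918 in 15 alternatives). This was the largest increase among the members after NOLC1 and TCOF1. NOP10 rose by 0.22 (SE 0.07), which no longer passed under upper quartile scaling (0.18), without siUSP43 replicate 2 (0.15) or without siNC replicate 1 (0.17). NHP2, which overlaps RMND5B, was at 40.01, 40.80 and 37.29 FPKM in siUSP43, against 35.08, 34.35 and 38.41 FPKM in siNC. Its groups overlapped, and its log2 fold change of 0.11 passed only without siUSP43 replicate 3 (0.15; Benjamini-Hochberg adjusted p = 0.0370 by edgeR).

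The box C/D snoRNP proteins were split. NOP56 was at 43.8, 45.5 and 42.0 FPKM in siUSP43, against 37.9, 38.6 and 41.3 FPKM in siNC. It rose by 0.14 on the log2 scale (SE 0.05; Benjamini-Hochberg adjusted p = 0.0355 by edgeR), and no longer passed in 6 of 15 alternatives, among them under upper quartile scaling (0.11), without siUSP43 replicate 1 (0.14) or 2 (0.11), or without siNC replicate 1 (0.11) or 2 (0.13). FBL (fibrillarin), the methyltransferase, and NOP58 had log2 fold changes of -0.09 and -0.05 and did not pass. RRP9, a component specific to the U3 snoRNP, was at 14.33, 14.41 and 14.50 FPKM in siUSP43, against 16.49, 16.02 and 18.51 FPKM in siNC. It fell by 0.26 (SE 0.07; Benjamini-Hochberg adjusted p = 0.00914 by edgeR), and without siNC replicate 3, its highest library, the log2 fold change was -0.19 and did not pass (adjusted p = 0.0505). Of the 40 members 6 carry snoRNA genes within them on the same strand, namely NCL, GNL3, DKC1, NOP56, NOP58 and WDR43, against 1.61% of all genes tested.

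Factors of the small subunit processome and 40S maturation included 6 of 12 that rose (50%), 3 that fell (25%) and 3 that did not pass, against 28% and 28.1% of all genes tested that rose and fell. The subcomplex that in human cells also promotes ribosomal DNA transcription was divided: UTP4, WDR43 and HEATR1 rose by 0.22, 0.26 and 0.20 on the log2 scale, WDR75 fell by 0.21, and UTP15 had a log2 fold change of -0.01. HEATR1 did not pass without siNC replicate 2 (0.18) or 3 (0.17). RRP12, which takes part in late pre-40S maturation and export, was at 14.36, 14.84 and 14 FPKM in siUSP43, against 11.12, 11.18 and 11.19 FPKM in siNC. The gap was wide beside the spread, with a log2 fold change of 0.35 (SE 0.05; Benjamini-Hochberg adjusted p = 4.68e-05 by edgeR, at most 7.43e-04 in 15 alternatives). NOP14 and UTP20 rose by 0.26 and 0.23, and UTP20 did not pass without siNC replicate 3 (0.20).

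UTP14A, a processome factor that works with the helicase DHX37, showed the largest fall of the 40. It was at 15.31, 14.98 and 14.99 FPKM in siUSP43, against 20.99, 21.25 and 22.02 FPKM in siNC, with all siUSP43 libraries below all siNC libraries. Its log2 fold change was -0.52 (SE 0.05; Benjamini-Hochberg adjusted p = 3.09e-06 by edgeR, at most 7.76e-05 in 15 alternatives). BYSL (bystin), a 40S assembly factor, fell by 0.26 to 11.7, 11.4 and 10.6 FPKM in siUSP43, against 13.1, 13.1 and 13.6 FPKM in siNC. NAT10, the acetyltransferase of small subunit rRNA, and UTP18 each stood at a log2 difference of 0.10 and missed the threshold, although limma on log2(FPKM + 1) or log2(FPKM + 0.1) called UTP18 (0.11 and 0.12). UTP4, UTP15, HEATR1, NOP14 and RRP12 overlap other tested genes, and because strand use was not given in the sources used here, reads of overlapping genes on opposite strands cannot be told apart.

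Among the 8 factors of 60S assembly 3 rose (37.5%), 1 fell (12.5%) and 4 did not pass, against 28% and 28.1% of all genes tested that rose and fell. Of the 3 that rose, LAS1L alone kept its call in all 15 alternatives. LAS1L, which acts in the removal of the second internal spacer, was at 7.05, 6.99 and 6.74 FPKM in siUSP43, against 5.46, 5.55 and 5.53 FPKM in siNC. Its log2 fold change was 0.31 (SE 0.05; Benjamini-Hochberg adjusted p = 1.36e-04 by edgeR, at most 0.00165 in 15 alternatives). NOP2, an rRNA cytosine methyltransferase and a proliferation marker, was at 2.14, 1.84 and 2.07 FPKM in siUSP43, against 2.62, 2.47 and 2.39 FPKM in siNC, the lowest level of the 40. It fell by 0.32 (SE 0.09; Benjamini-Hochberg adjusted p = 0.0104 by edgeR, at most 0.0441 in 15 alternatives). PES1, BOP1 and WDR12, which form a single complex, had log2 fold changes of 0.15, 0.16 and -0.08, of which PES1 alone passed (Benjamini-Hochberg adjusted p = 0.0486 by edgeR). The call of PES1 ended in 9 of 15 alternatives, among them without any 1 library other than siUSP43 replicate 3 (log2 fold changes 0.09 to 0.16), with limma and under upper quartile scaling. BOP1 passed without siUSP43 replicate 3 (0.24) and with no filter (0.17). The paralogs RRP1B and RRP1 each had a log2 fold change of 0.17. RRP1B passed, a call that ended in 3 of 15 alternatives, among them without siNC replicate 1 (0.17) or 3 (0.14), and RRP1 passed only without siUSP43 replicate 3 (0.22). NOP16 had a log2 fold change of -0.01, and WDR12 and NOP16 overlap other tested genes.

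Of the RNA polymerase I genes 3 of 5 rose and 0 fell, where 28% and 28.1% of all genes tested did so, and 1 of the 3, POLR1A, rested on a narrow margin. POLR1B, the second-largest subunit, was at 5.77, 5.64 and 6.24 FPKM in siUSP43, against 5.01, 4.74 and 4.55 FPKM in siNC. Its log2 fold change was 0.29 (SE 0.06; Benjamini-Hochberg adjusted p = 0.00177 by edgeR, at most 0.0110 in 15 alternatives). UBTF, the upstream binding factor that marks active ribosomal DNA, was at 15.6, 14.9 and 15.6 FPKM in siUSP43, against 12.9, 13.1 and 12.3 FPKM in siNC, a log2 fold change of 0.25 (SE 0.05; Benjamini-Hochberg adjusted p = 6.32e-04 by edgeR, at most 0.00534 in 15 alternatives). POLR1A, the largest subunit, rose by 0.14 (SE 0.05; Benjamini-Hochberg adjusted p = 0.0398 by edgeR), which no longer passed in 10 of 15 alternatives, among them without any 1 library other than siUSP43 replicate 2 (0.10 to 0.17), with limma, with no filter or under upper quartile scaling. POLR1C, a subunit shared with RNA polymerase III, was at 3.28, 3.11 and 2.74 FPKM in siUSP43, against 3.48, 3.26 and 3.33 FPKM in siNC. Its groups overlapped, and its log2 fold change of -0.16 did not pass. RRN3, the factor that recruits the polymerase, stood at -0.11 on the log2 scale and passed as a decrease only without siUSP43 replicate 3 (-0.15). POLR1C and RRN3 overlap other tested genes, and RRN3 has 5 pseudogene entries, of which RRN3P3 averaged 1.26 FPKM in 1 entry.

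The rest of the pathway was described with 118 further genes in 4 lists, of which 114 were tested and NOPCHAP1, KBTBD8, PWP2 and DDX47 lay below the filter. Of the 114, 36 rose (31.6%) and 22 fell (19.3%), beside 28% and 28.1% of all genes tested, around a median of 0.04 on the log2 scale within a range from -0.55 to 0.58, so NOLC1 and TCOF1 lay above every tested gene of these lists. The number that fell was 11 without siUSP43 replicate 1, 12 without siNC replicate 3 and 14 by limma on log2(FPKM + 1) or log2(FPKM + 0.1). Other polymerase I genes included 1 that rose of 11, POLR1F at 0.31, and 2 that fell, the promoter selectivity factor subunits TAF1C and TAF1B at -0.42 and -0.31. Among 14 snoRNP assembly factors and modifiers of NOLC1, 5 rose and 3 fell. They included CUL3, the scaffold of the ligase named above, at 0.32, COIL, the Cajal body protein, at 0.28 and NUFIP1 at 0.22, and ZNHIT6, PIH1D1 and SNU13 at -0.55, -0.24 and -0.21. Of 40 further small subunit factors 12 rose and 6 fell, led by DHX37, NOL10 and MPHOSPH10 at 0.58, 0.54 and 0.43 and by TBL3, PNO1 and RRP7A at -0.40, -0.38 and -0.22. Of 49 further 60S factors 18 rose and 11 fell, led by EBNA1BP2, GTPBP4 and URB2 at 0.52, 0.50 and 0.40 and by SENP3, CEBPZ and WDR18 at -0.53, -0.33 and -0.33. SENP3 and WDR18 work in the same pre-60S complex as LAS1L, which rose. Other genes of that complex were mixed: TEX10 rose by 0.13 and NOL9 fell by 0.18 on the log2 scale. PELP1, at 0.03, missed the threshold.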

How the data were processed

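RNA was sequenced from 6 T24 samples, 3 siUSP43 and 3 siNC, grouped by sample title. The authors deposited raw read counts and FPKM per gene, per the file headers. The submitters' processing notes name cutadapt 2.6, HISAT2 2.2.1 and the GRCh38 build. The counter, annotation, strand setting and treatment of reads with several matches are not given in the sources used here.

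Counts were tested with edgeR 4.0.16 (R 4.3.3, quasi-likelihood, TMM scaling on all-gene totals, group as the only term) in genes with a mean of at least 1 FPKM, with USP43 and all members kept, and Benjamini-Hochberg adjustment over all 11417. The SE was the log2 fold change divided by the root of the test's F. limma 3.58.1 and DESeq2 1.42.0 were alternatives, with other scalings and filters, a replicate block and each library left out. The fits were tested on counts simulated with edgeR's own dispersions and far fewer changed genes than the 6409 called here. That test therefore does not check the share of genes called. Libraries of a group differed by more than counting noise (chi-square per degree of freedom 2.13 to 11.3).

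Members, gene lists and tests were chosen with earlier results of these data known. Values in every library are given for NOLC1, TCOF1, USP43, members past the test with an absolute log2 fold change of at least 0.5, and the highest and lowest of each role group, and for some members chosen after their values were seen (DKC1, BYSL, UBTF). Up to 3 increases and 3 decreases are named per wider list, and TEX10, NOL9 and PELP1 are added as partners of LAS1L. Counts carry no molecular identifiers, so counting error may be understated. Sequences are from RefSeq (GRCh38.p14) and 3' UTRs from GENCODE release 29.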

Additional observations from a re-analysis of the deposited data

How the results depend on the processing

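Of the 24 member calls 15 held in all 15 alternatives, 9 ended in at least 1, and 0 reversed. NCL and POLR1A each lost their call in 10 alternatives. Of the 16 members that did not pass, 5 passed in at least 1 alternative. Between 13 and 20 members rose and 4 to 6 fell when 1 library was left out, and 14 rose under upper quartile scaling. Of all genes tested 3198 rose as reported, 2718 to 3273 with 1 library left out and 2826 under upper quartile scaling, where their median log2 fold change was -0.044. The members' median log2 fold change was 0.092 under upper quartile scaling, 0.14 with edgeR's expression filter or limma on log2(FPKM + 0.1), and 0.10 to 0.14 with 1 library left out. Of the wider lists 14 genes fell by limma with either added value, and 11 to 22 with 1 library left out. USP43 kept its decrease in all 15, at -0.80 by limma with 1 FPKM added and -1.31 with 0.1 FPKM added. The log2 ratio of NOLC1 to TCOF1 differed by 0.80 to 0.92 with 1 library left out, and by 0.86 on raw counts. With the replicate number as a block 14 members rose and 5 fell, 26 and 16 of the wider lists, and 2775 and 2841 of all genes. The block ended the calls of NCL, NOP56, PES1, RRP1B and POLR1A (adjusted p = 0.229, 0.0992, 0.0889, 0.0654 and 0.117 by edgeR). Same-numbered libraries did not deviate together (correlations -0.04, -0.17 and -0.35, with 0 of 6 libraries closest to their own number). Differently numbered libraries reached 0.36, for siUSP43 replicate 2 with siNC replicate 3. So few values cannot exclude pairing by number, and the labels do not say whether replicates were separate cultures. The causes of these shifts were not tested.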

Other observations

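The tested genes within 100 kb of NOLC1 also moved, by less, where 56.1% of all genes tested passed in either direction. Whether they share a cause with NOLC1 was not tested. GBF1, PPRC1, LDB1 and ARMH3 rose by 0.56, 0.44, 0.31 and 0.13 on the log2 scale and HPS6 fell by 0.23 (Benjamini-Hochberg adjusted p = 9.02e-07, 6.49e-06, 2.55e-04, 0.0334 and 0.00755 by edgeR), against 1.81 for NOLC1. PPRC1, which ends just before NOLC1 starts and encodes a coactivator of mitochondrial gene expression, averaged 20.8 FPKM in siUSP43 and 15.2 FPKM in siNC. Near TCOF1, CD74 and NDST1 fell by 0.86 and 0.33, while RPS14 and ARSI had log2 fold changes of -0.03 and -0.13 and did not pass.

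The 7-mers GGATCCA and GATCCAA, taken from earlier results of these data, were in the longest annotated 3' UTR of 1 of the 40 members, RRP1, against 10.7% of 10106 tested genes with a 3' UTR. RRP1 did not pass the test. The lengths of the 3' UTRs, on which the number of such matches depends, were not compared between members and other genes.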
